A study of Mus musculus with 8 samples.

Results

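The 43 genes described here encode the machinery that moves secretory and membrane proteins into the endoplasmic reticulum (ER), folds and glycosylates them there, destroys those that fail, and signals when unfolded proteins build up. They are 43 of the 55414 genes of the count table, and all 43 were found by symbol. The set was chosen from the fall of Sec61a1 and other ER genes between day 1 and day 3 in these same libraries, so the difference between the days is given for the members as a description, with no test. The libraries are bulk RNA sequencing of macrophages from the bed of mouse skin wounds, 3 from day 1 after injury (day 1 a, b and c) and 5 from day 3 (day 3 a to e). The cells were taken from enzyme-digested wounds by beads carrying an antibody to F4/80, the product of Adgre1 and a marker of mouse macrophages, and every library is a pool of 6 wounds from 3 mice. The wound and the bead selection are common to both days, and the 8 libraries include no unwounded skin. Strain, sex, age and genotype are not given in the labels, nor whether any mouse was used for several pools, so the errors and p-values below measure the spread between these pools. In bulk RNA, a lower level of a gene can mean fewer cells that express it or less RNA per cell, which cannot be told apart here.

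A nascent protein with a signal sequence is brought by the signal recognition particle (SRP) to its receptor on the ER membrane and threaded through the Sec61 channel, while signal peptidase removes the signal sequence and the oligosaccharyltransferase attaches sugar chains. Chaperones such as BiP (Hspa5), calreticulin (Calr) and the protein disulfide isomerases then fold the chain, and chains that fail are pulled back into the cytosol by ER-associated degradation (ERAD). When unfolded chains accumulate, the membrane sensors IRE1 (Ern1), PERK (Eif2ak3) and ATF6 (Atf6) start the unfolded protein response, in which the transcription factors XBP1 and ATF6 raise chaperone and ERAD genes through ER stress response elements in their promoters.

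The ER stress response element (ERSE) was looked for in the promoters of the members. The set holds chaperone and ERAD genes, which the response raises through this element. A share above that of all promoters is therefore no independent finding. Promoters from 250 bases before to 50 bases after the start of the gene (RefSeq, GRCm38.p6) were in the reference table for 36 of the 43 members. The ERSE was searched on both strands as CCAAT, any 9 bases and CCACG, and the related ERSE-II as ATTGG, any 1 base and CCACG. An ERSE was found in 8 of these 36 promoters (22.2%) and in 37 of all 27025 promoters of the table (0.137%). An ERSE-II was found in 2 members, Dnajb11 and Herpud1, and in 12 promoters in all (0.0444%). The windows below set members whose level was lower at day 3 in every library (Calr, Pdia6 and Syvn1) beside the classical ERSE gene Hspa5. They also show Canx and Dnajc3, which carry an ERSE, and Herpud1, which carries an ERSE-II. In Hspa5, Canx, Dnajc3 and Herpud1 the days overlapped. Each window is written 5′ to 3′ on the strand of its gene, with the fixed letters of the element in capitals.
Hspa5: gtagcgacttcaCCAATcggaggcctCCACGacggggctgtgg
Calr: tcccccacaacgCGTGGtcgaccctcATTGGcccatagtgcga
Pdia6: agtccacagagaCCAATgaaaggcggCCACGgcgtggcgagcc
Syvn1: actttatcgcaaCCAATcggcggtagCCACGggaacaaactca
Canx: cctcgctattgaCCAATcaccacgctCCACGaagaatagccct
Dnajc3: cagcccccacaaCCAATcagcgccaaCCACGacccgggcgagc
Herpud1: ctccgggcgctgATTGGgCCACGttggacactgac
These windows lie at chr2:34772013-34772055 (plus strand), chr8:84847063-84847105 (minus strand), chr12:17266479-17266521 (plus strand), chr19:6046520-6046562 (plus strand), chr11:50325788-50325830 (minus strand), chr14:118937815-118937857 (plus strand) and chr8:94386365-94386399 (plus strand). In Calr the element reads in the reverse orientation, and the last entry is an ERSE-II. The gap between the element and the start was 25 bases in Syvn1, 41 in Herpud1, 46 in Hspa5, 79 in Pdia6, 86 in Dnajc3, 126 in Canx and 143 in Calr. Hsp90b1 holds 2 ERSEs, 88 and 193 bases before its start, and Creld2 holds 1. The XBP1 element UPRE (TGACGTGG, both strands) was in 193 of all promoters (0.714%) and in 0 of the 36. A match is a run of letters, not a measured binding site.

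Library totals ran from 41566151 to 60289310 counts, and 3 counts, taken as the floor of detection, equal 0.0499 to 0.0752 CPM for counting error only. CPM are counts relative to the library total, scaled by TMM factors, and all levels below are CPM unless another scale is named. The third day 1 library stood apart. Malat1, a nuclear RNA, was at 1080 CPM in day 1 c and at 2582 to 3276 CPM in the other 7, and mitochondrial genes took 0.501% of its counts, the lowest of the 8 libraries. Log2 levels relative to the median of all libraries rose with the GC content of the transcript in day 1 c. Spearman rho was 0.38 across 8203 genes of 1 library, which are not independent replicates, against -0.24 to 0.12 in the others. The log2 fold change without this library is therefore given beside that with all 8 for every member but Eif2ak3. Adgre1 was at 817 ± 127 CPM at day 1 and 1128 ± 76.3 at day 3 (SD, n = 3 and 5), which fits the macrophage label.

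Most of the 43 members had a lower mean level at day 3, and of the 12 in which the days were fully apart in that direction, 7 were chaperones or disulfide isomerases. The median log2 fold change, day 3 minus day 1, was -0.52 over the members and -0.17 over all 15371 genes tested. It was -0.20 and -0.14 without day 1 c. Most members are abundant: 39 of the 43 averaged at least 5 in log2 CPM. The 3882 genes at that level had a median of -0.05. Without day 1 c, the medians of 8203 genes averaging at least 5 CPM were -0.10 to 0.01 in 5 classes by transcript GC content. Genes with any count numbered 23928 to 27315 at day 1 and 14952 to 20557 at day 3. The shares of all genes given here and below include genes at low levels. Below 0 lay 35 of the 43 members (81.4%), beside 57.1% of all genes. In 12 members every day 3 library was lower than every day 1 library, and in 1, Derl2, every day 3 library was higher. Over all genes tested the days did not overlap in 8.73% (lower) and 5.35% (higher). Without day 1 c the counts were 12 lower and 3 higher (Derl2, Ssr3 and Eif2ak3), beside 16.3% and 8.67% of all genes. Since the members were chosen by this contrast, these counts describe the set and support nothing further. The edgeR quasi-likelihood test called 2 of the 15371 genes at an adjusted p under 0.05 (0.013%) and 2414 at an unadjusted p under 0.05 (15.7%).

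**Figure D1:**
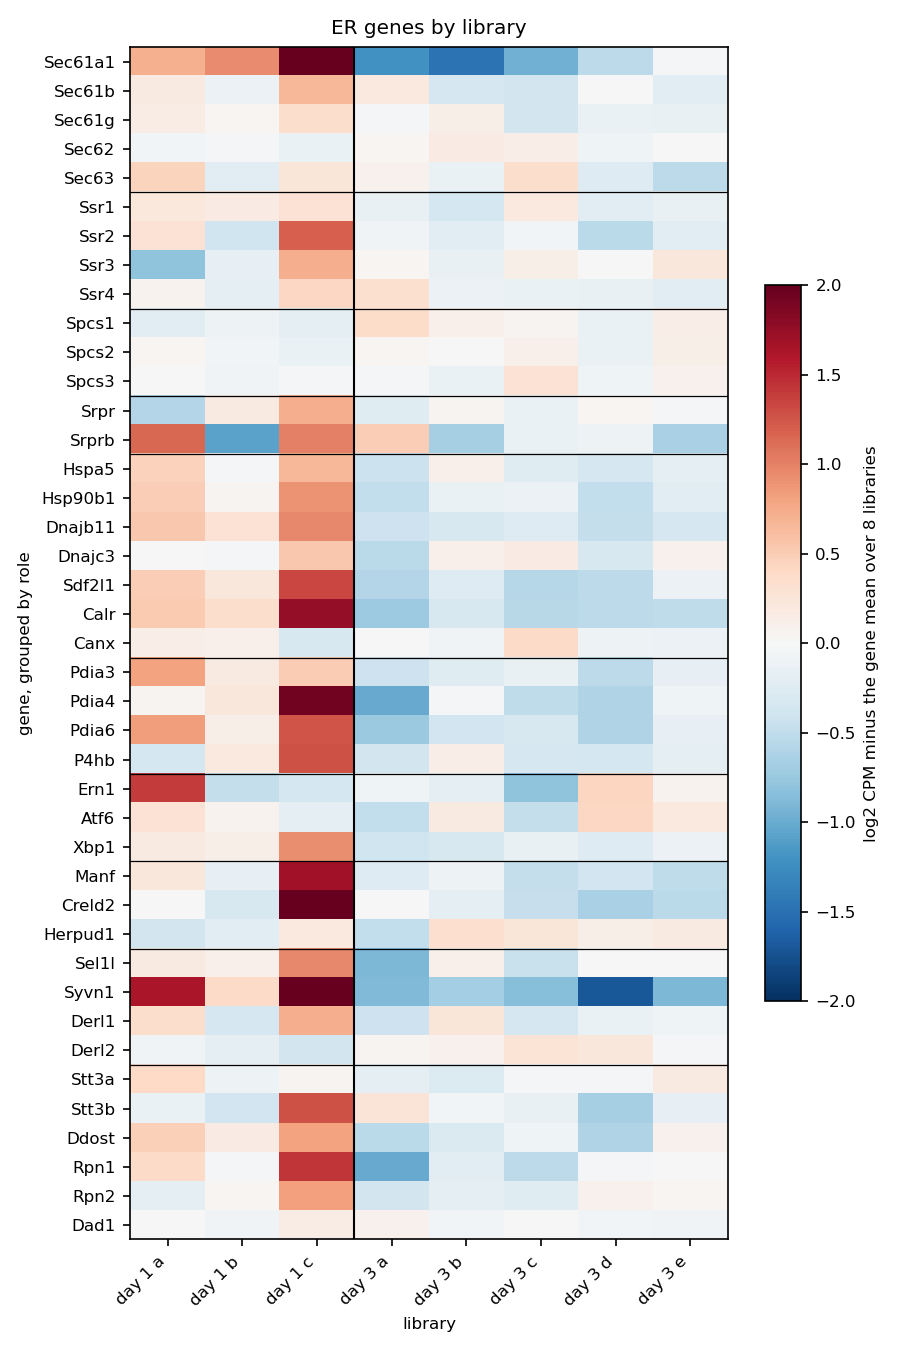
Log2 of CPM in each library relative to the mean over the 8 libraries (colour, capped at 2 in either direction) for 41 members grouped by role, with day 1 a to c on the left and day 3 a to e on the right; Hyou1 and Eif2ak3, which were near 0 in several libraries, are left out. The day 1 c column is the darkest of the day 1 columns in most chaperone and isomerase rows, and the signal peptidase rows show little contrast.

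The Sec61 channel is built from 3 subunits, and the days were apart in Sec61a1 but overlapped in Sec61b and Sec61g. Sec61a1, the pore-forming subunit (ENSMUSG00000030082, GRCm39 chromosome 6, 88480561 to 88495887, minus strand), was at 70.0, 82.5 and 252 CPM at day 1 (in the order a to c here and below) and 18.5, 15.4, 22.0, 29.7 and 42.3 CPM at day 3 (in the order a to e). Every day 3 library lay under every day 1 library, and day 1 c was 3.30 times the mean of the other 2 day 1 libraries. The log2 fold change, day 3 minus day 1, was -2.40 ± 0.46 (± SE here and below), -1.59 without day 1 c and -2.28 after a correction for GC content. Of the exon bases of Sec61a1, 549 of 6732 (8.2%) overlap Gm44170 on the other strand, and reads there cannot be told apart; Gm44170 itself was listed at 0 CPM in all 8 libraries. Sec61b, the beta subunit, was at 111, 90.1 and 155 CPM at day 1 and 112, 77.4, 75.3, 96.3 and 82.9 at day 3, with overlapping days. Its log2 fold change was -0.42 ± 0.22, -0.18 without day 1 c and -0.06 after the GC correction. The gamma subunit gene Sec61g gave -0.29 ± 0.17 (-0.20 without day 1 c, -0.27 after the GC correction), from 69.0 to 86.0 CPM at day 1 to 52.3 to 73.3 at day 3. Sec62 and Sec63, membrane partners of the channel that serve post-translational import, gave 0.13 ± 0.14 and -0.25 ± 0.25 (0.10 and -0.22 without day 1 c), with overlapping days. After the GC correction they were at 0.26 and -0.24. On a per-length scale (CPM per kilobase of exon, RPKM), the mean level of Sec61a1 went from 20.02 to 3.80 RPKM, against 93.2 to 69.8 for Sec61b and 31.1 to 25.5 for Sec61g.

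The translocon-associated protein complex, which sits beside the channel and helps certain signal sequences to enter, had members on both sides of 0 once day 1 c was set aside. Its 4 genes had a median log2 fold change of -0.26, or -0.09 without that library, and the days overlapped in all 4. Ssr2 was at 117, 72.4 and 218 CPM at day 1 and 90.6, 81.9, 91.7, 66.0 and 82.1 at day 3 (-0.72 ± 0.30, -0.20 without day 1 c). Ssr3 was at 168, 260.4 and 484 CPM at day 1 and 302, 264, 318, 296 and 341 at day 3. Its log2 fold change was -0.00 ± 0.29, while without day 1 c all 5 day 3 libraries were higher (0.50). Ssr1 gave -0.35 ± 0.16 (-0.32 without day 1 c), and Ssr4 went from -0.17 ± 0.20 to 0.01, changing sign. All 4 genes had their highest day 1 level in day 1 c.

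Signal peptidase, the enzyme that cuts off the signal sequence, was the role with no lower member. Spcs1, Spcs2 and Spcs3, which accompany the catalytic subunits, gave log2 fold changes of 0.28 ± 0.15, 0.08 ± 0.13 and 0.06 ± 0.15 (0.27, 0.03 and 0.06 without day 1 c), and the days overlapped in each. Spcs1 ranged over 160.4 to 173 CPM at day 1 and 169 to 240.1 at day 3, and 252 of its 1546 exon bases (16.3%) are shared with Glt8d1 on the other strand, the largest share among the members. None of the 3 had its highest day 1 level in day 1 c. The SRP receptor is a pair of subunits. Srprb, the membrane-anchored one, was at 69.4, 14.8 and 62.5 CPM at day 1 and 43.8, 19.7, 28.3, 29.0 and 19.8 at day 3 (-0.80 ± 0.46, -0.57 without day 1 c), with the lowest of all 8 libraries at day 1. Srpr, the subunit that docks the SRP, was at 63.7, 108 and 158 CPM at day 1 and 80.4 to 99.0 at day 3 (-0.27 ± 0.26). Without day 1 c its sign turned, to 0.08.

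The lumenal chaperones and their helpers were lower at day 3 in 7 of 8 genes by log2 fold change, with a median of -0.90 (-0.68 without day 1 c). In 4 of the 8 the days did not overlap, all lower at day 3, beside 8.73% of all genes. Calr, a sugar-binding chaperone that also buffers calcium, was at 517, 462 and 1215 CPM at day 1 and 218, 289, 247, 250.4 and 255 at day 3. Its log2 fold change was -1.54 ± 0.29, and -0.97 without day 1 c. Dnajb11, a BiP co-chaperone, was at 284, 237 and 379 CPM at day 1 and 146, 157, 163, 141 and 155 at day 3 (-0.98 ± 0.17, -0.78 without day 1 c). In both genes day 1 c was the highest library, yet the other 2 day 1 libraries also lay above all 5 of day 3. Sdf2l1, which forms a complex with Dnajb11, was at 199, 164 and 357 CPM at day 1 and 93.8, 117, 94.6, 97.7 and 129 at day 3 (-1.17 ± 0.25, -0.77 without day 1 c). Hsp90b1, the ER member of the HSP90 family, was at 839, 618 and 1113 CPM at day 1 and 421, 543, 546, 422 and 514 at day 3 (-0.81 ± 0.20, -0.58 without day 1 c), and 15.7% of its exon bases are shared with other gene models. These 4 are the chaperones without overlap.

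Hspa5, the HSP70 of the ER and the most abundant member on either scale, was at 3599, 2578 and 4119.6 CPM at day 1 and 1944, 2803, 2197, 2079 and 2271 at day 3 (-0.61 ± 0.19, -0.46 without day 1 c). The days overlapped only because day 3 b exceeded day 1 b. Canx, the membrane-bound relative of calreticulin, was at 1364, 1335 and 988 CPM at day 1 and 1230.2, 1180.0, 1612, 1158 and 1142 at day 3 (0.04 ± 0.18, -0.10 without day 1 c). It was lowest in day 1 c, opposite to Calr. Dnajc3, a BiP co-chaperone also known as p58IPK, gave -0.28 ± 0.22 (-0.08 without day 1 c), with overlapping days. Hyou1, a large HSP70-like chaperone that serves as an exchange factor for BiP, rested on few counts: 90, 24 and 1684 counts at day 1 and 2, 0, 90, 28 and 0 at day 3. Only day 1 c held it at a sizeable level (30.6 CPM), and 3 of the 5 day 3 libraries were at or under 3 counts. The fitted log2 fold change of -4.59 ± 1.94 therefore turns on 1 library and became -1.54 without it.

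**Figure D2:**
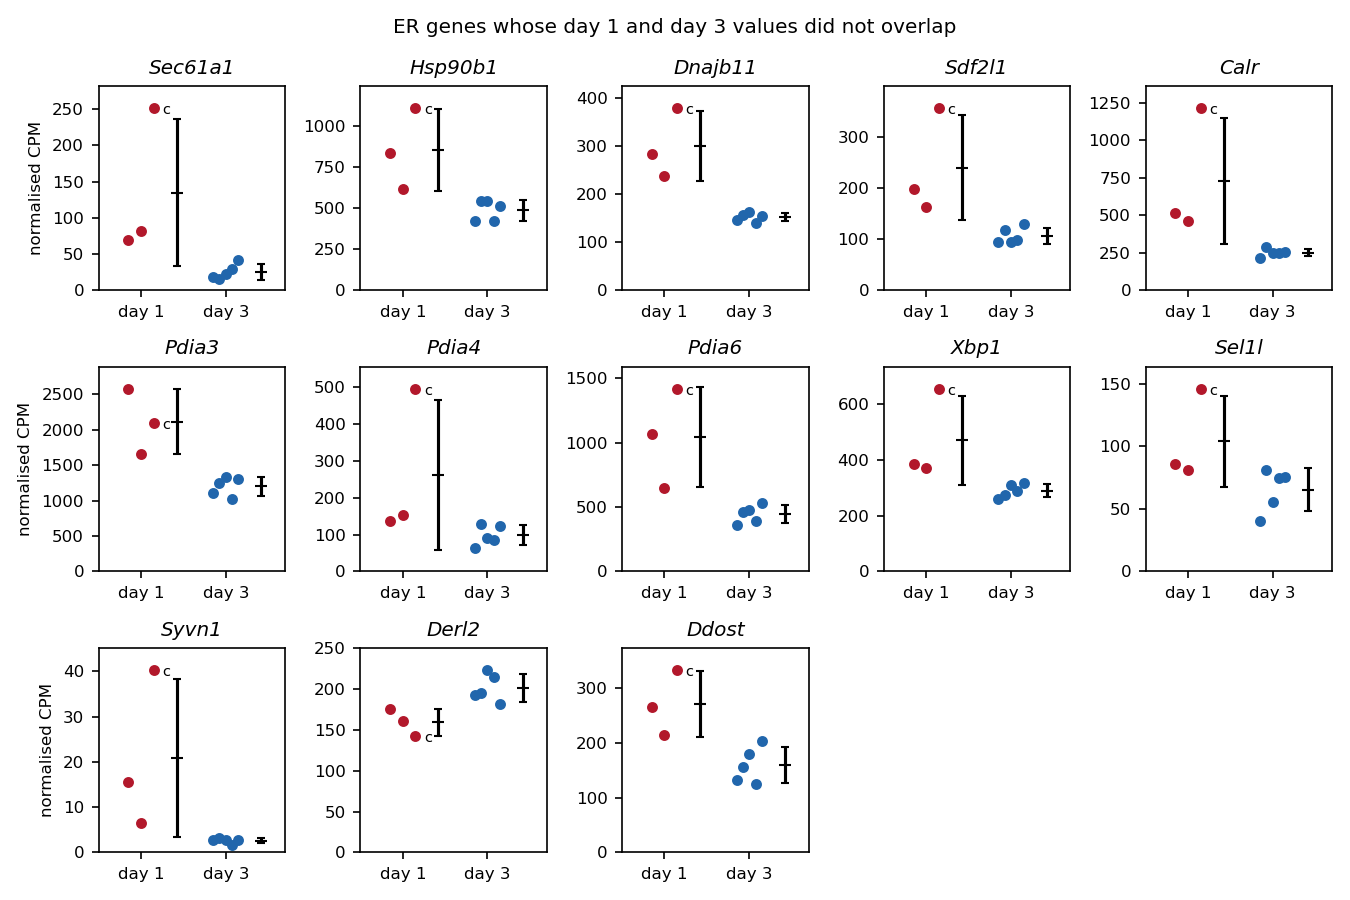
CPM in each library (points) with the mean and SD of each day beside them (n = 3 and 5) for members whose 8 values do not overlap between the days, on a linear axis from 0; c marks day 1 c. In Sec61a1, Calr, Syvn1 and Pdia6 the c point lies above the other day 1 points, whereas in Pdia3 the highest point is day 1 a and in Derl2 the day 3 points are the higher ones.

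The 4 protein disulfide isomerases, which form and shuffle disulfide bonds, had a median log2 fold change of -1.03 (-0.69 without day 1 c). In 3 of the 4 the days did not overlap, all lower at day 3, beside 8.73% of all genes. Pdia3, the partner of calreticulin and calnexin, was at 2578, 1663 and 2095 CPM at day 1 and 1106, 1244, 1327, 1019 and 1307 at day 3. It gave -0.82 ± 0.18, and -0.82 without day 1 c, so this difference did not rest on that library. Pdia6 was at 1064, 648 and 1418 CPM at day 1 and 357, 458, 475, 390.4 and 533 at day 3 (-1.24 ± 0.24, -0.96 without day 1 c). Pdia4 was at 135, 153 and 495 CPM at day 1 and 64.8, 129, 91.0, 85.6 and 123 at day 3 (-1.41 ± 0.41), and without day 1 c its log2 fold change was -0.56. P4hb, the founding isomerase PDI, was at 316, 464 and 976 CPM at day 1 and 315, 442, 319, 318 and 356 at day 3 with overlapping days. Its -0.75 ± 0.32 went to -0.17 without day 1 c.

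Of the unfolded protein response sensors, none was lower at day 3 in every library, while Xbp1 was. Xbp1, the transcription factor whose messenger RNA is cut by IRE1, was at 386, 371 and 655 CPM at day 1 and 261, 275, 309, 287 and 317 at day 3 (-0.70 ± 0.20, -0.39 without day 1 c). Counts per gene do not separate its spliced from its unspliced form, so they give no reading of IRE1 activity. Ern1 (IRE1) was at 54.1, 14.8 and 16.1 CPM at day 1 and 19.5, 18.2, 11.9, 27.9 and 21.6 at day 3 (-0.52 ± 0.46, -0.80 without day 1 c), with day 1 a above and the other 2 day 1 libraries among those of day 3. Atf6 gave -0.06 ± 0.26 (-0.18 without day 1 c), with 52.7 to 74.0 CPM at day 1 and 42.9 to 80.3 at day 3. Eif2ak3 (PERK) was at 0, 0 and 509 counts at day 1 and 389, 242, 443, 50 and 422 at day 3. The 2 libraries at 0 allow up to 0.0752 and 0.0499 CPM, while day 1 c held 9.25 CPM, above all day 3 libraries (0.860 to 8.71 CPM). No difference between the days can be read from such values, and 8.0% of its exon bases overlap Gm43292 on the other strand.

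Of 3 further target genes of the response, Creld2 and Manf were highest in day 1 c. Creld2, a secreted ER stress protein, was at 68.4, 54.6 and 304 CPM at day 1 and 69.0, 60.4, 49.98, 43.5 and 47.3 at day 3 (-1.40 ± 0.49). Manf, a growth factor kept in the ER lumen, was at 135, 102 and 368 CPM at day 1 and 95.6, 106.5, 82.1, 87.6 and 80.6 at day 3 (-1.16 ± 0.36). Leaving out day 1 c took Creld2 to -0.19 and Manf to -0.39, and the days overlapped in both. Of the other 2 day 1 libraries, both lay within the day 3 range for Creld2, while for Manf day 1 a lay above all 5 day 3 libraries and day 1 b within them. Herpud1, which recruits ERAD factors, was at 68.1, 74.4 and 101 CPM at day 1 and 62.3, 111, 103, 95.0 and 99.5 at day 3 (0.21 ± 0.23, 0.39 without day 1 c).

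In ERAD, the ubiquitin ligase and its partner were lower and a channel-like factor was higher at day 3. Syvn1, the ligase HRD1, was at 15.6, 6.58 and 40.4 CPM at day 1 and 2.73, 3.13, 2.79, 1.55 and 2.71 at day 3. Its log2 fold change of -3.01 ± 0.59 was the largest among members whose days did not overlap, and it was -2.10 without day 1 c, from a low level of 0.531 RPKM at day 3. Sel1l, the adaptor of HRD1, was at 85.7, 80.9 and 146 CPM at day 1 and 40.3, 80.8, 55.5, 74.9 and 75.8 at day 3 (-0.67 ± 0.28, -0.36 without day 1 c), with day 1 b and day 3 b only just apart. Derl2, a membrane protein of the retrotranslocation complex, was at 175, 161 and 142 CPM at day 1 and 192, 195, 223, 215 and 182 at day 3 (0.33 ± 0.15, 0.25 without day 1 c). It was the only member with every day 3 library above every day 1 library. Derl1, its paralog, gave -0.44 ± 0.25 (-0.18 without day 1 c) with overlapping days.

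Of the 6 oligosaccharyltransferase subunits, only Ddost did not overlap between the days, being lower at day 3. Over all genes 8.73% were lower without overlap. Ddost was at 266, 213 and 333 CPM at day 1 and 131, 156, 179.9, 125 and 203 at day 3 (-0.77 ± 0.21, -0.60 without day 1 c). Rpn1, which presents substrates to the enzyme, was at 177, 134 and 366 CPM at day 1 and 67.7, 118, 94.4, 132 and 135 at day 3 (-1.05 ± 0.33, -0.52 without day 1 c), and its day 1 b lay within the day 3 range. The alternative catalytic subunits Stt3a and Stt3b gave -0.19 ± 0.17 and -0.58 ± 0.38. Without day 1 c Stt3a was at -0.23 and Stt3b changed sign, to 0.13. Rpn2 gave -0.42 ± 0.24, and -0.06 without day 1 c. Dad1, a small structural subunit, was at 139, 131 and 153 CPM at day 1 and 145, 132, 138, 132 and 131 at day 3 (-0.06 ± 0.14, 0.00 without day 1 c), with all 8 libraries close together.

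**Figure D3:**
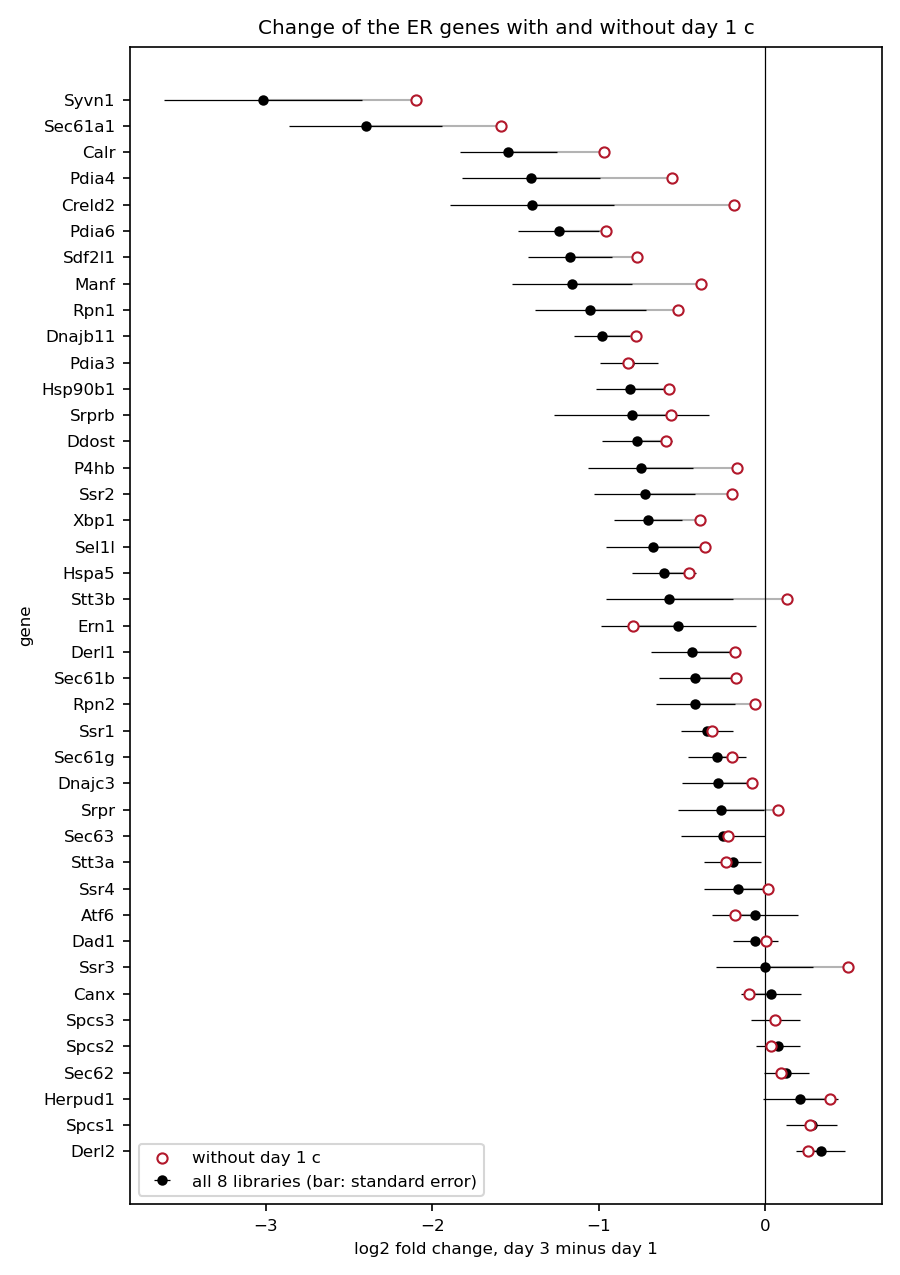
Log2 fold change (day 3 minus day 1) of 41 members, sorted by size, with all 8 libraries (filled, with standard error) and without day 1 c (open) joined by a line; Hyou1 and Eif2ak3 are left out. Without day 1 c Sec61a1 moves from -2.40 to -1.59 and the members' median from -0.52 to -0.20, while Pdia3 stays at -0.82.

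Day 1 c stood highest for most members, and the values that move with it are given here. It was the highest day 1 library for 31 of the 43 members (72.1%) and for 35.1% of all genes, and the highest of all 8 for 30 members and 18.7% of genes. The median log2 ratio of day 1 c to the mean of day 1 a and b was 0.61 over the members and -0.08 over all genes. Among 8203 genes put in 5 equal classes by transcript GC content, that ratio rose from -0.38 in class 1 (lowest GC) to 0.61 in class 5. In classes 3 and 4, where 10 and 11 of the 41 members at this level fall, the members' medians were 0.70 and 1.20, and those of the genes -0.05 and 0.15. In class 1 the 9 members had a median of 0.00, in class 2 the 7 members one of -0.02, and in class 5 the 4 members one of 0.80. Of the 41 members, 36 lay above the median of the genes of their own class. With a GC correction in the fit, the members' median log2 fold change was -0.47 and that of all genes -0.04. Among single members, the correction took Sec61b from -0.42 to -0.06, Sdf2l1 from -1.17 to -0.77 and Sec62 from 0.13 to 0.26. A high day 1 c adds to the fall from day 1 to day 3 by which the set was chosen, so these counts only describe the set. Why day 1 c differs was not tested.

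**Figure D4:**
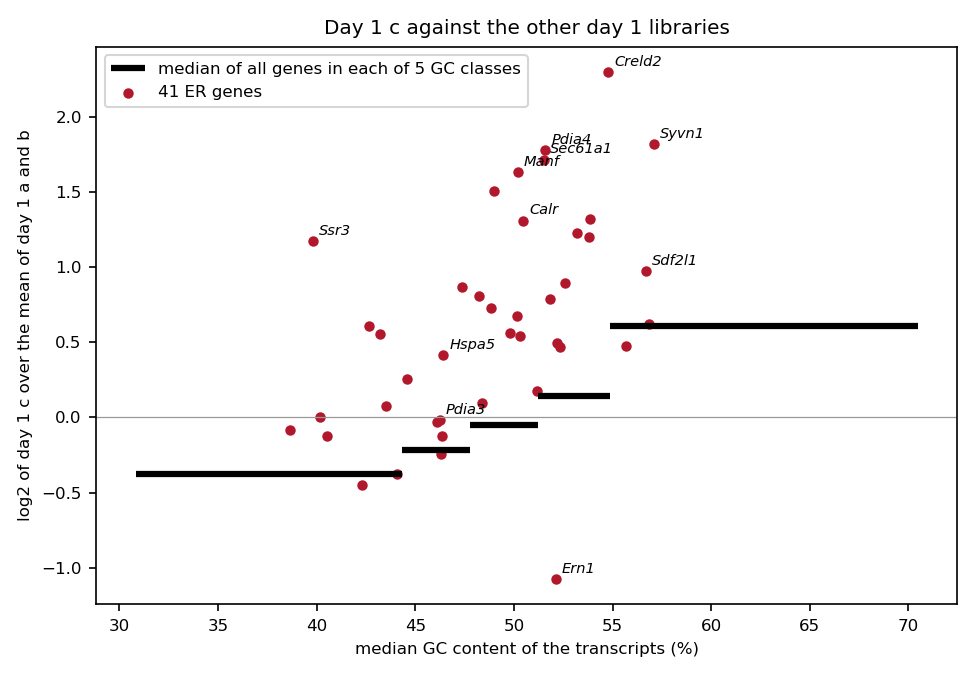
Log2 ratio of CPM in day 1 c to the mean of day 1 a and b against the GC content of the transcript, for 41 members (points), with bars at the median of all genes in each of 5 GC classes (8203 genes with a mean of at least 5 CPM). The median climbs from -0.38 to 0.61, and 36 of the 41 members lie above the median of their class.

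The spread between genes was read against the promoter elements shown above. The 10 members with an ERSE or ERSE-II had log2 fold changes from -3.01 to 0.21 with a median of -0.90, and 5 of them, Calr, Dnajb11, Hsp90b1, Pdia6 and Syvn1, did not overlap between the days. The 26 members with a promoter in the table and neither element had a median of -0.39, with 6 lower and 1 higher without overlap. Over all genes 8.73% were lower without overlap. Without day 1 c the medians were -0.52 and -0.19 and the counts of lower members 5 and 6, beside 16.3% of all genes. Members with an element lay on both sides of 0, with Herpud1 at 0.21 and Canx at 0.04 (-0.10 without day 1 c). The same elements stood in 39 promoters of other genes, of which 19 were tested. These 19 had a median log2 fold change of 0.09 (-0.06 without day 1 c). Of them 2 were lower without overlap, near the share of all genes. Many of the 19 were at low levels, so they are not matched in level to the members. Tdrd9, 1 of the 2 lower genes, was at a mean of 0.940 CPM at day 1 and 0.0306 at day 3. Sec61a1 has no promoter in the table. The members were chosen by this contrast, so their values here are a description, and a link between element and change was not tested.

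Levels per length ranged widely within the set. At day 3 Hspa5 (534 RPKM), Pdia3 (382) and Canx (269) were highest, and Hyou1 (0.0633), Syvn1 (0.531) and Eif2ak3 (0.992) lowest. At day 1 the order at the top was Hspa5 (812 RPKM), Pdia3 (673), Pdia6 (279), Canx (262) and Calr (254). The place of Calr beside Canx rested on day 1 c: Calr was at 179.5, 161 and 422 RPKM and Canx at 291, 285 and 210.5 RPKM in day 1 a, b and c. Pdia6 was at 284, 173 and 379 RPKM in the same libraries. At day 3 Calr and Pdia6 were at 87.4 and 118 RPKM. The members' summed level was 12704 to 19979 CPM at day 1, highest in day 1 c, and 10002 to 11563 CPM at day 3.

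Across the 8 libraries, the 5 genes most alike to Sec61a1 lay outside the 43, though several members also had a high correlation with it. Among 3881 genes averaging 5 or more in log2 CPM, the highest Pearson r of log2 CPM were those of Shisa5 (0.985), which encodes a membrane protein of the ER, Irf5 (0.981), a transcription factor of inflammatory macrophages, Hnrnpu (0.981), a nuclear RNA-binding protein, Lrrc25 (0.980) and Map2k2 (0.978), a MAP kinase kinase. Irf5, for example, was at 91.3, 97.5 and 282 CPM at day 1 and 49.0, 33.8, 52.5, 57.3 and 74.5 at day 3. In each of the 5 genes day 1 c was the highest library. Transcript GC content was 55.0% in Shisa5, 57.6% in Irf5, 57.7% in Lrrc25 and 57.3% in Map2k2, within the highest GC class above, and 40.9% in Hnrnpu. In all, 112 genes had an r above 0.9, members among them. Among the members Xbp1 came closest (0.954), followed by Sdf2l1 (0.936), Calr (0.927), Dnajb11 (0.913) and Pdia6 (0.901), while Sec62 (-0.819) and Derl2 (-0.875) ran opposite. All these values share the same 8 libraries and the 2 days, and they are a description.

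A list of 110 other ER genes was tested in the same fit. It was drawn up by role, but with earlier results of these data known. Its counts and p-values are therefore not those of a list chosen blind to these data. Of these, 108 were matched and 104 tested. The edgeR test called 0 of them after adjustment over all genes tested, and 25 had an unadjusted p under 0.05, 8 higher and 17 lower at day 3, beside 15.7% of all genes. DESeq2 called 3 higher (Tmem147, Ccdc47 and Txndc12) and 3 lower (Txndc11, Vcp and Traf2), beside 6.95% of all genes, and limma voom called Tmem147 and Ccdc47 higher and Txndc11 and Vcp lower, beside 5.37% of all genes. Ccdc47, Txndc12, Vcp and Traf2 are named for these calls, after their values were seen. With the stricter filter on low levels, edgeR called Tmem147 higher (adjusted p = 0.0384) and Txndc11 lower (adjusted p = 0.0355), beside 1.79% of all genes. The median log2 fold change of the 104 was -0.09, or 0.01 without day 1 c, and the days did not overlap in 10 higher and 8 lower genes, beside 5.35% and 8.73% of all genes. Without day 1 c these counts were 19 and 12, beside 8.67% and 16.3%.

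The partners of the Sec61 channel, the membrane insertases and the catalytic signal peptidase subunits had a median on the other side of 0 from Sec61a1. Of 20 tested, 7 were higher at day 3 without overlap and 0 lower, beside 5.35% and 8.73% of all genes. Their median log2 fold change was 0.23 (0.34 without day 1 c). The edgeR test called none of the 20, and 5 higher and 1 lower had an unadjusted p under 0.05, beside 15.7% of all genes. DESeq2 and voom each called 2, both higher, beside 6.95% and 5.37% of all genes. Tmem147, a small membrane subunit that joins the channel, was at 28.9, 21.6 and 31.3 CPM at day 1 and 60.1, 47.7, 62.8, 55.9 and 58.8 at day 3. It gave 1.06 ± 0.21, with an edgeR adjusted p of 0.0766 and 0.000179 to 0.52 over the alternatives. Mmgt1, an insertase subunit, was at 10.2, 1.96 and 10.3 CPM at day 1 and 16.4, 15.7, 13.6, 18.9 and 21.1 at day 3 (1.19 ± 0.54, edgeR adjusted p = 0.33). Ccdc47 and Tmco1, further channel partners, the latter also chosen after its values were seen, went from 61.0 ± 11.1 to 113 ± 17.1 and from 119 ± 32.9 to 194 ± 27.6 CPM (SD, n = 3 and 5). Their edgeR adjusted p were 0.0829 and 0.146. Not all of the 20 went this way, and 4 more were named after their values were seen. Emc1 and Emc10, insertase subunits, gave -1.55 ± 0.64 and -0.75 ± 0.40 (-1.19 and -0.17 without day 1 c), with overlapping days. Nomo1 and Ncln, which form a complex with Tmem147, gave -1.39 ± 1.46 and -1.20 ± 1.23 with overlapping days, and both changed sign without day 1 c, to 0.41 and 1.30. The difference between Sec61a1 and these genes was not tested, because Sec61a1 was chosen by this contrast.

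**Figure D5:**
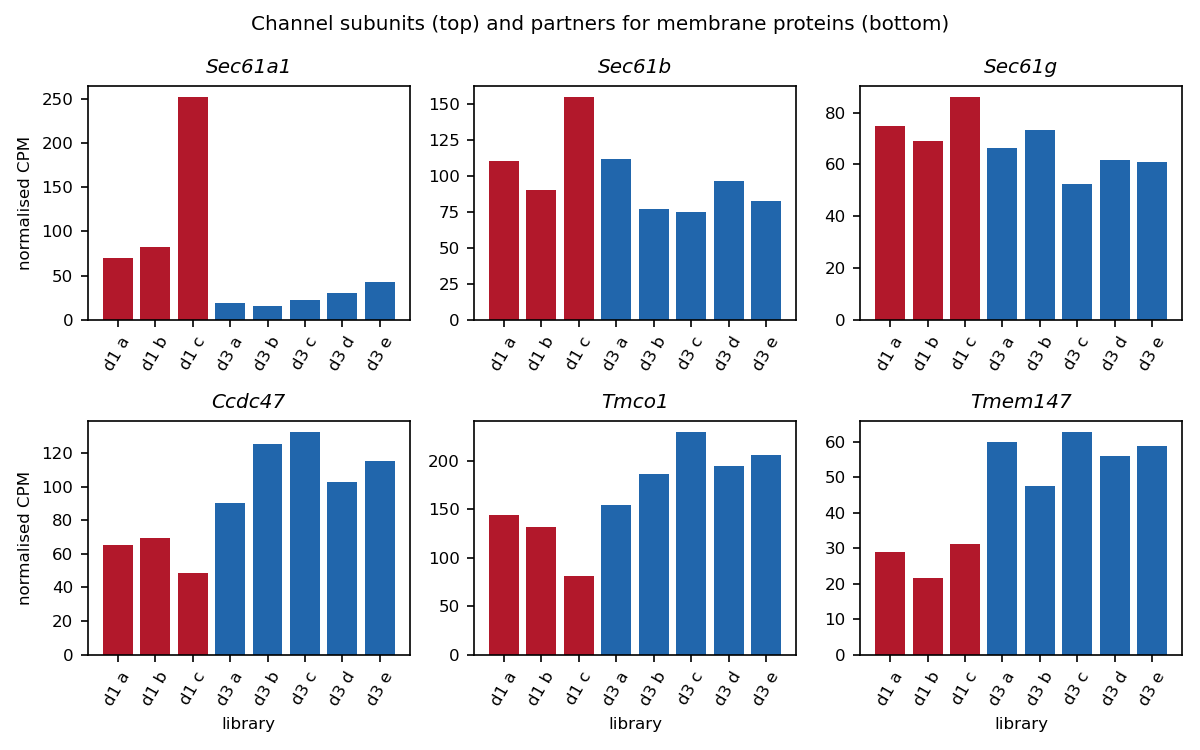
CPM in each library (bars from 0; d1 and d3 are day 1 and day 3) for the 3 channel subunits in the upper row and the partners Ccdc47, Tmco1 and Tmem147 in the lower row. The day 3 bars are all under the day 1 bars in Sec61a1, all over them in the lower row, and mixed with them in Sec61b and Sec61g.

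In the other 5 lists the medians ran from -0.43 (oligosaccharyltransferase and glycan trimming) to 0.05 (chaperones and disulfide enzymes), and from -0.09 to 0.14 without day 1 c. The genes named from them were picked for the size of their change or after their values were seen. Of 25 further chaperones and disulfide enzymes tested, 2 were higher and 3 lower without overlap, beside 5.35% and 8.73% of all genes. Txndc11, a thioredoxin-domain protein, was at 38.5, 28.8 and 49.8 CPM at day 1 and 5.78, 5.67, 15.7, 3.75 and 7.89 at day 3 (-2.34 ± 0.46, edgeR adjusted p = 0.0766, 0.000187 to 0.52 over the alternatives). Serpinh1, the collagen chaperone HSP47, was at 0, 8.21 and 5.94 CPM at day 1 and 15.4, 20.4, 25.1, 22.3 and 26.9 at day 3 (2.22 ± 1.17, edgeR adjusted p = 0.409). Beside it, summed fibroblast markers were at 9.90 to 39.5 CPM at day 1 and 63.0 to 136 at day 3, with Col1a1 at 3.05 to 3.62 and 14.5 to 25.1 CPM, and their part in the result was not tested. Ero1a, which reoxidizes the disulfide isomerases, was named after its values were seen. It was at 239, 344 and 466 CPM at day 1 and 178, 887, 185, 158 and 172 at day 3, and the neutrophil marker sum was at 653, 2036 and 3721 and at 526, 3394, 271, 325 and 375 CPM in the same libraries. Both were highest of day 3 in day 3 b and of day 1 in day 1 c, and the part of neutrophils was not tested.

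Of 20 further ERAD genes tested, 0 were higher and 2 lower without overlap. The shares of all genes, here and for the lists below, were 5.35% higher and 8.73% lower. Edem1, which marks misfolded glycoproteins for disposal, was at 72.7, 72.7 and 361 CPM at day 1 and 71.2, 57.4, 48.2, 62.7 and 71.8 at day 3 (-1.44 ± 0.48, edgeR adjusted p = 0.172). Its difference was mostly day 1 c, since it was -0.23 without that library. Vcp, the ATPase that pulls chains out of the ER membrane, went from 292 ± 82.2 to 154 ± 11.7 CPM (-0.93 ± 0.19, edgeR adjusted p = 0.0829). Of 11 oligosaccharyltransferase and glycan-trimming genes tested, 1 was higher and 2 were lower without overlap. Man1b1, a mannosidase of the ER, was at 10.2, 13.1 and 37.6 CPM at day 1 and 4.68, 8.37, 6.19, 6.46 and 10.2 at day 3 (-1.50 ± 0.50, edgeR adjusted p = 0.17, -0.71 without day 1 c). Of 16 genes of unfolded protein response signalling, 0 were higher and 1 was lower without overlap, and of 12 genes of signal recognition and targeting, 0 were either.

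Marker levels differed between the days, and their values stand beside the members' differences. The 10 macrophage markers summed to 16609 to 19609 CPM at day 1 and 28033 to 35561 at day 3, mostly through Lyz2, which went from 8141 ± 1605 to 19767 ± 2910 CPM (SD, n = 3 and 5). Of the 10, 4 were higher without overlap and Fcgr1 was lower (843 ± 130.2 to 433 ± 60.4 CPM), while Cd68, Csf1r, Mertk, C1qa and Itgam overlapped. Over all genes tested 5.35% were higher and 8.73% lower without overlap. The 5 monocyte markers summed to 1930 to 2784 and 1218 to 2009 CPM, with 3 lower without overlap and Ccr2 at 1216 ± 327 and 1247 ± 305 CPM. Neutrophil markers (10 genes) summed to 653 to 3721 CPM at day 1 and 271 to 3394 at day 3. The 10 B and plasma cell markers summed to 32.9 to 104 CPM at day 1 and 105 to 214 at day 3, mostly through Ighm. Of the defining genes of plasma cells, which are rich in the ER machinery, Jchain was at 0.0333 CPM at most and Mzb1 at 0.100 CPM at most, and Tnfrsf17 was at 1.61 ± 1.28 CPM at day 1 and 0.388 ± 0.536 at day 3. Dendritic cell markers (5 genes) summed to 86.9 to 193 and 54.8 to 156 CPM. Endothelial markers (8 genes) summed to 31.4 to 77.7 and 17.3 to 29.9 CPM, and keratinocyte (10), T and NK cell (6) and mast cell (4) markers to at most 42.8, 5.11 and 11.0 CPM in any library. The part of any of these cell types in the members' differences was not tested.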

How the data were processed

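RNA of F4/80-selected wound macrophages was sequenced (8 libraries). The authors deposited raw counts per gene without normalisation. Per the file headers, featureCounts 1.6.0 counted reads on Ensembl release 106 (GRCm39) with no strand option. The submitters' processing notes also name Trimmomatic and DESeq2. Which aligner made the alignments is not given in the sources used. The letters of the columns and of the counted alignments partly differ (day 1 c was f), so letters serve as names only. Symbols were given to 52081 of the 55414 genes (94.0%). All 8 columns belonged to these libraries.

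Genes were filtered with filterByExpr (minimum count 10), scaled by TMM and tested with the two-sided edgeR quasi-likelihood test, adjusted over all genes after Benjamini and Hochberg (threshold 0.05). All 43 members passed the filter, and 41 passed the stricter one (1 CPM or more in all libraries of either day, mean 5 CPM). Tools were edgeR 4.0.16, DESeq2 1.42.0 and limma 3.58.1 in R 4.3.3, and Python 3.11.15. The fits were tested on simulated data. Without strand, reads of overlapping genes cannot be told apart, and 16 of the 43 members share exon bases with another gene (at most 16.3%). The protocol names 6 samples per time point, while the count table holds 3 of day 1 and 5 of day 3. Precision is limited by these 3 and 5 pools. The members and lists were chosen with earlier results of these data known. Named were all members, the 6 other ER genes of largest change with non-overlapping days (average log2 CPM 3 or more), and the 5 genes most alike to Sec61a1. Promoter sequences and gene synonyms are from RefSeq (GRCm38.p6). Alternatives were DESeq2, limma voom, RLE scaling, library totals, no or a stricter filter, each library left out, only letters a to c (a replicate block or none) and, chosen after seeing the data, a GC correction.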

Additional observations from a re-analysis of the deposited data

Results flagged for a closer look

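Within the 5 day 3 libraries, 4 of the 43 members had 1 library far from the other 4, and chance alone gives such a gap in about 1 in 20 groups. Ssr4 was high in day 3 a, at 91.1 CPM. Hyou1 was high in day 3 c, at 1.77 CPM. Canx was high in the same library, at 1612 CPM. Syvn1 was low in day 3 d, at 1.55 CPM.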

How the results depend on the processing

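The number of genes called by edgeR, 2, depended on the tool and the filter: DESeq2 called 1021, limma voom 825, edgeR without a filter 1347 and with the stricter filter 146, while with the letters a to c alone it called 0 both with the replicate block and without it. It ranged from 0 to 59 with single libraries left out. Of the other ER genes edgeR called 0, DESeq2 6, voom 4, edgeR without a filter 7 and with the stricter filter 2, and with single libraries left out 0 to 1. The members' median log2 fold change of -0.52 stayed within -0.56 to -0.40 under other tools, scalings and filters (-0.46 with the replicate block), but was -0.77 without day 1 b and -0.20 without day 1 c, its extremes. The count of 13 members whose days do not overlap was 12 with RLE scaling and 16 with library totals, and 13 to 23 with single libraries left out, 23 without day 1 b. Sec61a1 gave -2.40, -2.60 with the replicate block and -2.75 to -1.59 with single libraries left out, lowest in size without day 1 c. Over 18 settings 28 members stayed below 0, 6 stayed above and 9 changed sign. Deviations of columns with the same letter correlated at 0.0749, 0.00245 and 0.056. Column and alignment letters partly differ, so neither these correlations nor the replicate block can show whether the pools were paired. Hyou1 and Eif2ak3 were at or under 3 counts in some libraries, so their values between the days are imprecise, and the cause of the low counts was not tested.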
